A study of Mus musculus with 48 samples.

Results

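The alpha and beta tubulins are the building blocks of microtubules, and 10 of their genes were followed through 2 circadian cycles in mouse liver: the alpha tubulins Tuba1a, Tuba1b, Tuba1c, Tuba4a and Tuba8 and the beta tubulins Tubb2a, Tubb2b, Tubb4b, Tubb5 and Tubb6. They were chosen by the gene symbols of the array's annotation, and all of their probe sets were used, 24 of the 45101 on the array. Of these, 19 carried a single gene symbol, and 5 were listed together with a pseudogene (Gm6682, Gm5620 or Tubb2a-ps2) and are named here with both symbols. Tuba1b and Tuba1c were measured only through such shared probe sets. Male C57BL/6J mice, 6 weeks old, were entrained to 12 h of light and 12 h of darkness and then kept in constant darkness, and livers were taken hourly between CT18 and CT65 (subjective dawn is CT0, subjective dusk CT12). The livers of 3 to 5 mice made up each of the 48 pools, with 1 Affymetrix array per pool, so there was no replicate within an hour and every error below comes from the spread of the 48 pools around the fitted curves. All pools belonged to 1 group of untreated wildtype mice.

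A microtubule grows from dimers of 1 alpha and 1 beta tubulin, so a cell needs both chains. Vertebrates carry several genes of each kind, whose proteins are very much alike and differ mostly at their acidic tails, where enzymes add and remove modifications. Newly made chains are handed by prefoldin to the CCT chaperonin and are joined by folding cofactors, and cells destroy tubulin mRNA when free dimers accumulate. In hepatocytes, which rarely divide, microtubules carry vesicles with secreted proteins and lipoproteins and move membrane proteins toward the bile canaliculus.

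The sense strand of the 250 bases before the transcription start is shown for 4 genes with motif matches, chosen after the matches were seen: Tubb2a, with the largest 24 h rhythm, Tubb4b and Tubb5, with smaller ones, and Tuba1c, with a 12 h rhythm. Each reads from 5′ to 3′, and capitals mark every match, on either strand, to 7 motifs: the E-box (CACGTG), the cAMP response element or CRE (TGACGTCA), the D-box core (TTANGTAA), the RORE core (AGGTCA), the heat shock element (GAANNTTC), the CCAAT box (CCAAT) and the TATA box (TATAAA). The sequences are from RefSeq (GRCm38.p6, chr13:34078009-34078258 on the minus strand, chr2:25224703-25224952 minus, chr17:35838302-35838551 minus and chr15:99029641-99029890 plus).
Tubb2a: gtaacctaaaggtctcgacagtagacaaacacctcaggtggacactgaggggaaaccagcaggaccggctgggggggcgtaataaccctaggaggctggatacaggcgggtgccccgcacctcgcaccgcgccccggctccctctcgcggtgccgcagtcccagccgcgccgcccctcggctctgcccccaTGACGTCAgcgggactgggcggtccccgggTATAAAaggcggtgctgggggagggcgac
Tubb4b: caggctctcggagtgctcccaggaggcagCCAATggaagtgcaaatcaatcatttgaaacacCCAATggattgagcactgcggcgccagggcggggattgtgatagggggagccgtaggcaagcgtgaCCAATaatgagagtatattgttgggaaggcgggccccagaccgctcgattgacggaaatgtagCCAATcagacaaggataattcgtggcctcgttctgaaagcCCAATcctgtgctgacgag
Tubb5: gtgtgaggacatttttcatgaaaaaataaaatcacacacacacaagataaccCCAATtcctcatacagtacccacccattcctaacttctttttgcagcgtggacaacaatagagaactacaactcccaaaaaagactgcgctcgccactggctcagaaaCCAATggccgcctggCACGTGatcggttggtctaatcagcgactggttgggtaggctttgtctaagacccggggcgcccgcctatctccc
Tuba1c: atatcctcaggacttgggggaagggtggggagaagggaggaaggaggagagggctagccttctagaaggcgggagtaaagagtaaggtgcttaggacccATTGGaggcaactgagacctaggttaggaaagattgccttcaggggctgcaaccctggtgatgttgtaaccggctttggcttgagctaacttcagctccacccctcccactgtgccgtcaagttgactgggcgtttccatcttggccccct
Tubb2a had a CRE beginning 59 bases before the start, a motif found in 1.55% of the 32851 promoters of the same length, and a TATA box at 29 bases (12.4% of promoters). Tubb4b held 5 CCAAT boxes between 221 and 19 bases before the start and Tubb5 held 2, at 198 and 90, while 33.8% of all promoters had at least 1. Tubb5 also had an E-box at 75 bases (6.02%). Of the other members with a promoter in the table, 8 of 10 genes in all, Tuba1a and Tuba1c had 1 CCAAT box each, Tuba8 an E-box and a RORE core (14.02%), and Tuba1b and Tuba4a none of the 7. No match overlapped another. The D-box core (2.06% of promoters) and the heat shock element (6.69%) were not matched in any of the 8 windows. These are matches of letters only, and binding was not measured.

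By both rhythm tests, Fisher's G-test and a cosine fit in the manner of COSOPT, each at a q-value under 0.05 over all probe sets, 10 of the 24 tubulin probe sets had a 24 h period length (20 to 30 h), 2 a 12 h one (10 to 14 h) and 0 an 8 h one (7 to 9 h). Over the whole array 9.98%, 0.772% and 0.264% of probe sets were called in these classes. The 10 probe sets belonged to 7 genes, Tuba1a, Tuba1b (listed with Gm5620), Tuba4a, Tubb2a, Tubb4b, Tubb5 and Tubb6, and the 2 probe sets with 12 h both to Tuba1c (listed with Gm6682). Tuba8 and Tubb2b were not called by both tests. Rhythms were thus called in alpha and beta tubulins alike, in 4 probe sets of 10 and 6 of 14 for 24 h.

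All 12 called probe sets were among the 15 with a mean intensity of 100 or more, and none of the 9 dimmer ones was called, so the number called in these 15 is better read against the 18.4% of equally bright probe sets that were called with 24 h. Counted by gene, with the brightest probe set of a single symbol, 6 of 8 measured tubulins were called with 24 h, against 14.2% of 18194 genes, and 0 with 12 h, against 1.13%. Limma, in which each probe set was fitted with a linear trend and components of 24, 12 and 8 h, called a 24 h component in 16 of 24 probe sets of 9 genes (47.4% of the array), a 12 h component in 4 (4.89%) and an 8 h component in 0 (1.35%). For 8 h, 6 of the 24 had an unadjusted p under 0.05 in limma, as did 12.9% of the array. Probe sets whose names end in _x_at, _s_at or _a_at can bind transcripts of more than 1 related gene or variant, and the coding sequences of tubulin genes are close to each other, so part of their signal may come from a paralogue.

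**Figure D1:**
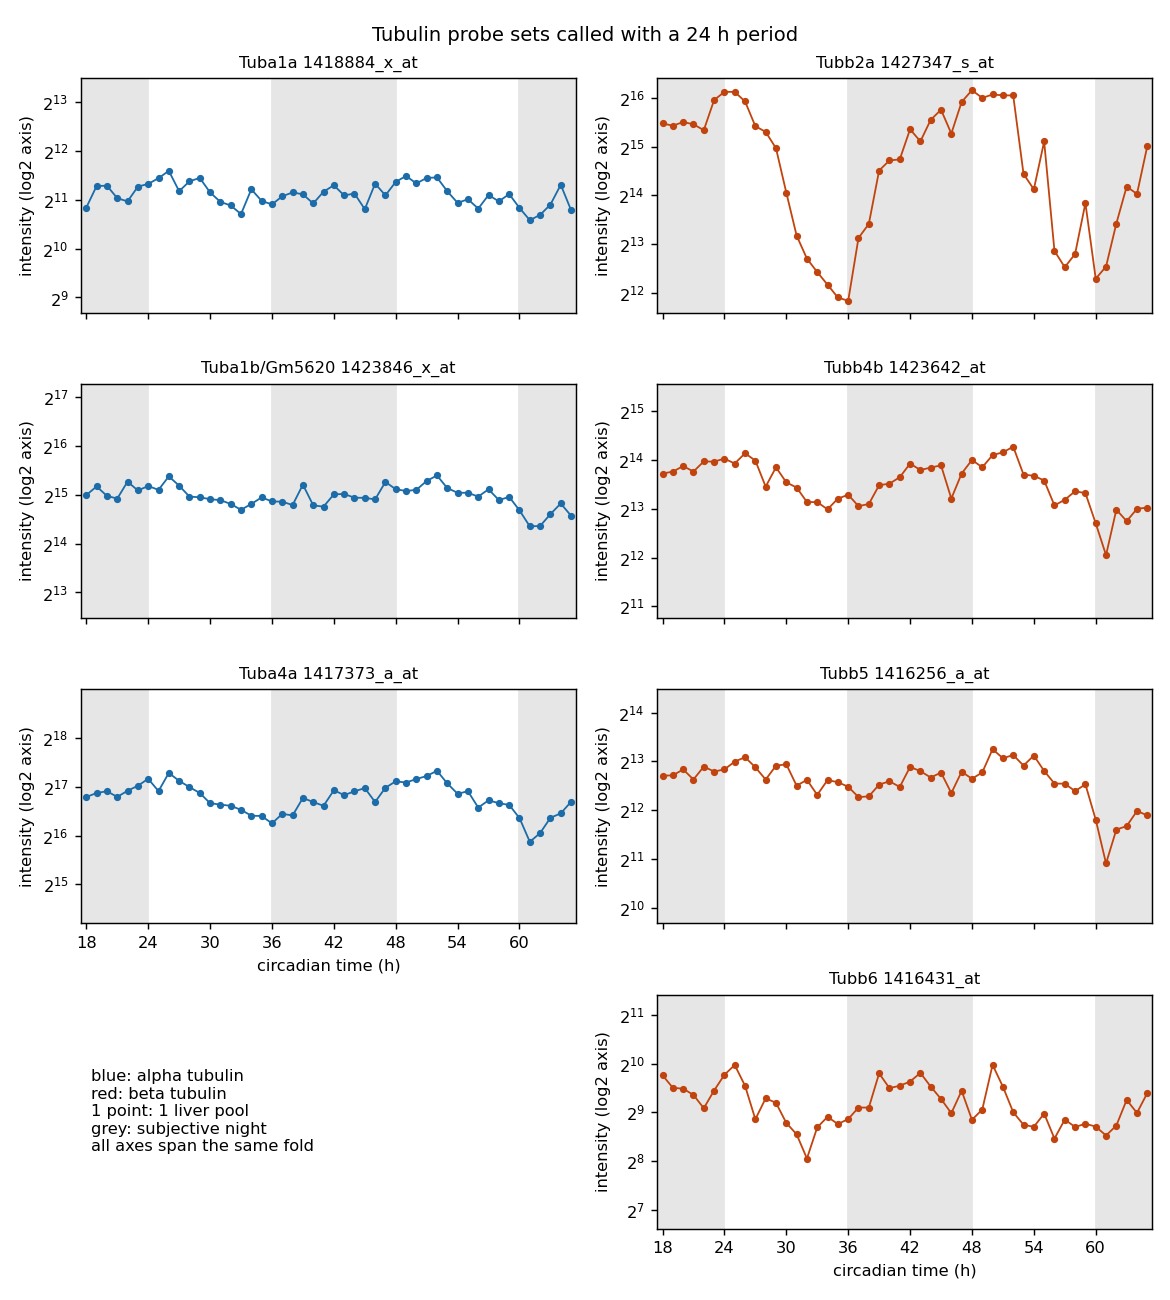
Intensity (log2 axis) against circadian time for the brightest probe set of each gene called with 24 h, 1 point per pool, with subjective night in grey. Tubb2a spans 3665.5 to 73070.3, the largest fold range, and the other profiles turn over about 2-fold to 5-fold. Several reach their lowest value at CT61, whose array had the lowest 75th percentile of intensity and the lowest correlation with the others.

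Among the alpha tubulins, Tuba4a had the largest 24 h rhythm, in 2 of its 3 probe sets. The probe set 1417373_a_at was lowest at CT61 with 59955.5, had a median of 113428 and was highest at CT52 with 164467. In the first cycle the 6 pools of CT24 to CT29 lay between 120020 and 159536 and the 12 pools of CT30 to CT41 at or below 111806, and in the second cycle CT48 to CT53 lay at or above 137417 and CT54 to CT65 at or below 123046, so the early subjective day did not overlap with the later hours in either cycle. The 24 h component peaked at CT0.90 ± 0.31 (SE) with an amplitude of 0.38 ± 0.03 on the log2 scale, a 1.69-fold change from trough to peak (95% interval 1.55 to 1.84, G-test q = 1.15e-09). A further probe set, 1417374_at, ran from 25379 at CT61 to 80830.2 at CT52 and gave a 1.92-fold change (1.74 to 2.12) with a peak at CT0.28 ± 0.28. The remaining, dim probe set, 1417375_at, varied only between 207.2 and 335.3, was not called by both tests and had a limma adjusted p of 0.0436 for 24 h. Tuba4a is an isotype of many adult tissues and differs from most alpha tubulins in that its gene does not encode the terminal tyrosine.

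Tuba1a, the isotype best known from developing neurons, ran from 1534.7 at CT61 through a median of 2221 to 3094 at CT26. Its 24 h change was 1.31-fold (1.18 to 1.45) with a peak at CT1.08 ± 0.69 (limma adjusted p = 0.000299), and the call by both tests was lost with quantile normalization. Tuba1b/Gm5620, whose tubulin is a broadly expressed housekeeping isotype, ran from 20956.1 at CT61 to 43188.4 at CT52 around a median of 31920, a 1.33-fold change (1.21 to 1.47) that peaked at CT1.60 ± 0.64. Both changed less than Tuba4a, with an amplitude of 0.20 and 0.21 on the log2 scale. The second Tuba1a probe set, 1433584_at, which is listed with Gm6682, stayed between 64.1 and 83.1 and was not called.

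Tuba1c, another broadly expressed alpha isotype, was the only member that both tests called with a 12 h period length. A difference of period length between genes was not tested. Its 2 probe sets are listed with the pseudogene Gm6682, and the accession the annotation gives for them is that of a Tuba1c transcript. The brighter one, 1448232_x_at, was lowest at CT61 with 5495.2, had a median of 8595 and was highest at CT39 with 12287.4. Its means over 6 pools were 10053 in CT24 to CT29, 6865 in CT30 to CT35, 9778 in CT36 to CT41, 8403 in CT42 to CT47, 10283 in CT48 to CT53 and 7356 in CT54 to CT59, which is a rise both after subjective dawn and after subjective dusk of the first cycle. In CT60 to CT65, the hours after the second dusk, the mean was 7908, with a range of 5495.2 to 9534.3. The cosine fit gave a period length of 12.9 h (G-test q = 0.00923, cosine q = 0.00125). The 12 h component had an amplitude of 0.25 ± 0.04 on the log2 scale, a 1.41-fold change, and peaked at 2.96 ± 0.27 h after CT0 and again 12 h later (limma adjusted p = 3.8e-05). The other probe set, 1416128_at, ran from 1454.2 at CT32 to 3330.5 at CT52 and gave a period length of 12.8 h, an amplitude of 0.19 ± 0.04 and a peak at 2.35 ± 0.36 h (adjusted p = 0.0025), but lost its call by both tests without CT60 to CT65. A 24 h component was also called in both by limma, with amplitudes of 0.15 and 0.17 and peaks at CT21.9 and CT22.7. In 1448232_x_at this peak lay at CT17.0 in the CT18 to CT41 pools alone and at CT24.0 in the CT42 to CT65 pools, where limma did not call it (adjusted p = 0.328). From the CT18 to CT41 pools alone limma called the 12 h component of 1448232_x_at (adjusted p = 0.0042) but not of 1416128_at (0.257). From the CT42 to CT65 pools alone it called neither (0.111 and 0.593).

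**Figure D2:**
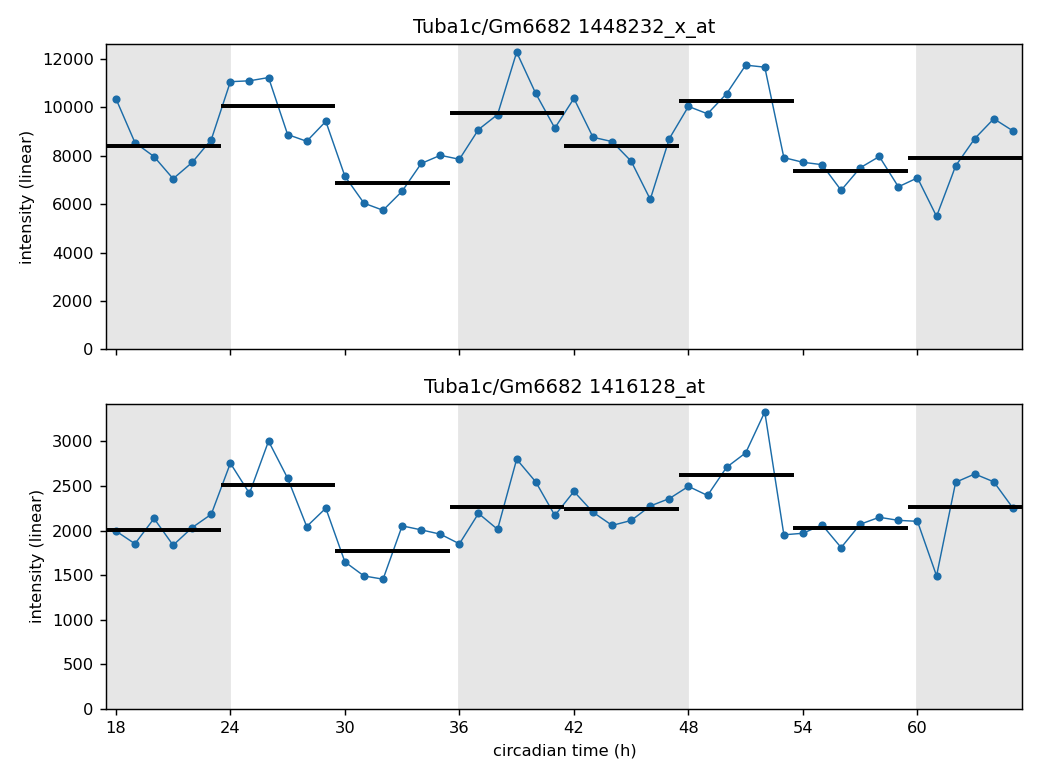
Intensity (linear axis from 0) of the 2 probe sets of Tuba1c/Gm6682 against circadian time, 1 point per pool, with the mean of each 6 h window as a black bar and subjective night in grey. In the upper panel the windows of CT24 to CT29, CT36 to CT41 and CT48 to CT53 have the highest means, 10053, 9778 and 10283, with lower windows between them.

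The 12 h amplitude of Tuba1c/Gm6682 was set against that of each other gene in the same pools. Tuba1c was singled out because both tests called it with 12 h, so these differences are a description. For 1448232_x_at, the probe set with the larger 12 h amplitude, it exceeded the amplitude of Tuba1b/Gm5620 by 0.25 on the log2 scale (95% interval 0.18 to 0.32), of Tuba1a by 0.15 (0.07 to 0.22) and of Tuba4a by 0.17 (0.09 to 0.25). Against Tubb5 and Tubb6 the intervals held 0, at -0.03 to 0.26 and -0.03 to 0.15, and Tubb2a had a larger 12 h component, by -0.22 (-0.38 to -0.06) in the same direction of subtraction. For 1416128_at the differences from Tuba1a, Tuba1b/Gm5620 and Tuba4a were 0.08 (0.0024 to 0.17), 0.19 (0.10 to 0.27) and 0.11 (0.02 to 0.20). Against Tubb4b, Tubb5 and Tubb6 its intervals held 0, at -0.04 to 0.20, -0.10 to 0.20 and -0.11 to 0.11. Tubb2a again had the larger 12 h component (-0.28, -0.45 to -0.11). Tuba1a lies between Tuba1b and Tuba1c, with no other protein-coding gene between neighbours (RefSeq, GRCm38.p6).

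Tuba8, an isotype known from testis and muscle, was near background. Its probe set 1419518_at ran from 168.5 to 272.3 around a median of 191, and 1446771_at from 71.6 to 139.9. Neither was called by both tests, and limma gave the dimmer one a 24 h component with an amplitude of 0.11 ± 0.03 and an adjusted p of 0.0179, which was lost with quantile normalization.

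Among the beta tubulins, Tubb2a had the largest rhythm of the family. Its probe set 1427347_s_at fell from 71362.9 at CT24 to 3665.5 at CT36, reached 73070.3 at CT48 and stood at 5022 at CT60, around a median of 32527. In the first cycle the 12 pools of CT18 to CT29 lay at or above 32039.6 and the 12 of CT30 to CT41 at or below 27344.2, without overlap. In the second cycle the corresponding groups overlapped, with 22238.8 at CT53 against 35269.9 at CT55. The 24 h component changed 12.1-fold from trough to peak (9.29 to 15.7) and peaked at CT23.1 ± 0.19 (G-test q = 3.53e-14, limma adjusted p = 6.83e-18). Only 15 of the 4499 probe sets called with 24 h on the array had a larger 24 h amplitude. A 12 h component stood beside it, with an amplitude of 0.47 ± 0.09 on the log2 scale and an adjusted p of 0.00169, which peaked at 4.10 ± 0.36 h. This 12 h call was lost on linear values and from the CT42 to CT65 pools alone (adjusted p = 0.596), and the other Tubb2a probe set was not called with 12 h (0.0591). The cosine fit gave 1427347_s_at a period length of 23.8 h, which held 71.3% of the variance. Whether its 12 h component was a rhythm of its own or part of the shape of the 24 h profile was not tested. The dimmer probe set 1427838_at ran from 92.7 to 824.3 around a median of 253, changed 4.23-fold (3.33 to 5.38) and peaked at CT23.7 ± 0.30. In the 2 probe sets together, fitted in each cycle alone, the 24 h peak lay between CT22.6 and CT24.0. Tubb2a encodes a major beta tubulin of brain that is also made in other tissues.

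Tubb2b, the neighbour of Tubb2a in the genome with a nearly identical protein, was at or near background, with 89.9 to 142.4 in 1452679_at and 65.3 to 97.4 in 1449682_s_at, which is listed with Tubb2a-ps2. Neither was called by both tests or by limma, and the 24 h amplitudes were 0.04 ± 0.02 and 0.05 ± 0.02, against 1.80 ± 0.10 for the brighter Tubb2a probe set. Whether part of the signal of 1427347_s_at came from Tubb2b was not tested.

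Tubb4b, a beta tubulin of nearly all tissues, was lowest at CT61 with 4240.2, had a median of 12531 and was highest at CT52 with 19790.7 in its bright probe set 1423642_at. Its 24 h component changed 1.94-fold (1.67 to 2.26) and peaked at CT0.41 ± 0.41 (G-test q = 1.76e-07). In the second cycle the pools of CT48 to CT53 lay at or above 13324.5 and those of CT54 to CT65 at or below 13093.3, whereas in the first cycle CT24 to CT29 and CT30 to CT35 overlapped, with 11221.1 against 11926.5. The 5 other Tubb4b probe sets had means between 31.9 and 74.9 and were not called by both tests. Limma called a 24 h component in 1456031_at (adjusted p = 0.0199), with an amplitude of 0.016 and a peak at CT16.4 ± 1.22. This call was lost with quantile normalization.

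Tubb5, a broadly expressed housekeeping isotype, ran in 1416256_a_at from 1920.1 at CT61 through a median of 6357 to 9728.7 at CT50, and in 1455719_at from 463.7 at CT65 to 2329.8 at CT26. The fitted changes were 1.72-fold (1.47 to 2.02) and 1.51-fold (1.23 to 1.85), with peaks at CT2.20 ± 0.57 and CT2.56 ± 0.97. This rhythm leaned on the last pools. The mean of 1416256_a_at over CT60 to CT65 was 3284, against 5559 at the same hours of the first cycle, CT36 to CT41, and all 6 of the last values (1920.1 to 4042.7) were below all 6 of the earlier ones (4925 to 6169.7). Without CT60 to CT65 both Tubb5 probe sets lost the call by both tests, and limma gave 1416256_a_at an amplitude of 0.25 with an adjusted p of 8.61e-06 and 1455719_at an amplitude of 0.19 with an adjusted p of 0.0544.

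The pools of CT60 to CT65 also stood apart on the whole array. Their correlation with the other arrays averaged 0.989, against 0.994 for CT18 to CT59, and their 75th percentile of intensity was 797.1 to 944.8, against 891.3 to 1099.4. Tuba1b/Gm5620 had its lowest window there too, with a mean of 24442 against 30312 in CT36 to CT41, and without these pools it lost the call by both tests, while limma kept an adjusted p of 0.00178. Tubb4b had a mean of 7065 in these pools against 10541 in CT36 to CT41, and Tubb2a, in contrast, 15054 against 16861. The 24 h calls of Tuba1a, Tuba4a, Tubb2a, Tubb4b and Tubb6 by both tests held without CT60 to CT65. Among all arrays, that of CT61 had the lowest 75th percentile (797.1) and the lowest median correlation with the others (0.984). The brightest probe sets of Tuba1a, Tuba1b/Gm5620, Tuba1c/Gm6682, Tuba4a, Tubb4b and Tubb5 had their lowest value on this array. The low end of their ranges therefore rests on it. The cause of the difference between CT60 to CT65 and the other pools was not tested.

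Tubb6, a widely expressed and more divergent beta tubulin, peaked earliest among the probe sets that both tests called with 24 h. Its probe set 1416431_at was lowest at CT32 with 265.8, had a median of 546 and was highest at CT50 with 1006. The 24 h change was 1.75-fold (1.496 to 2.04) with a peak at CT20.7 ± 0.54 (limma adjusted p = 1.85e-06). The window means were 702 in CT18 to CT23, 717 in CT24 to CT29 and 402 in CT30 to CT35, and 709, 613 and 431 in the matching windows of the second cycle, so the low hours recurred late in the subjective day. The dim probe set 1446353_at lay between 60.7 and 86.4 and was not called by both tests. Limma called its 24 h component (adjusted p = 0.0216), with an amplitude of 0.04 ± 0.01 and a peak at CT14.7 ± 1.16, and this call was lost with quantile normalization.

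**Figure D3:**
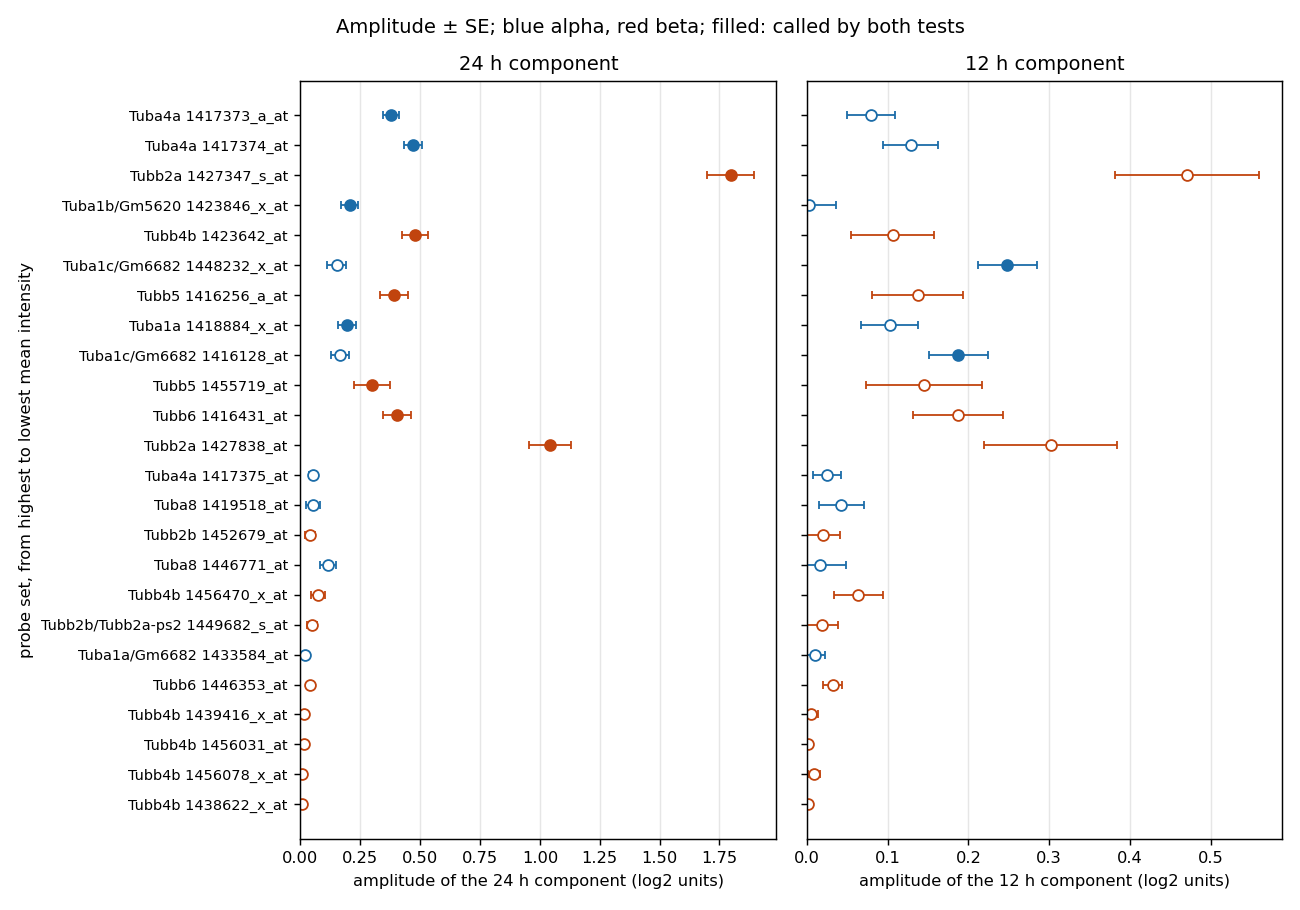
Amplitude ± SE of the 24 h (left) and 12 h (right) components from limma, in log2 units, for all 24 probe sets in order of mean intensity, alpha tubulins in blue and beta tubulins in red, filled where both tests called that period length. Tubb2a stands highest in both panels, with 1.80 and 0.47, and the 2 filled points on the right are those of Tuba1c/Gm6682.

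To ask whether alpha and beta tubulins peaked together, the 24 h peak times were compared between genes, with 1 probe set per gene (the brightest with a 24 h component in limma). For Tuba8 this was the dim 1446771_at (mean 85.8), which peaked at CT19.9 over all pools, at CT22.0 and CT14.4 in the separate cycles without a call in either, and lost its call with quantile normalization, so its place is poorly fixed. The order of the other peaks began with Tubb6 at CT20.7 and Tuba1c/Gm6682 at CT21.9, went on with Tubb2a at CT23.1, Tubb4b at CT0.41, Tuba4a at CT0.90 and Tuba1a at CT1.08, and ended with Tuba1b/Gm5620 at CT1.60 and Tubb5 at CT2.20. The place of Tuba1c/Gm6682, which both tests called with 12 h and not 24 h, is poorly fixed too. Its 24 h peak lay at CT20.1 without CT60 to CT65 and at CT17.0 and CT24.0 in the separate cycles. Alpha and beta genes were mixed in this order, and all 9 peaks, Tuba8 included, fell within the second part of the subjective night and the first hours of the subjective day. The intervals of the differences between neighbours in the order held 0 for Tubb6 and Tuba1c/Gm6682, Tuba4a and Tuba1a, Tuba1a and Tuba1b/Gm5620, and Tuba1b/Gm5620 and Tubb5. They also held 0 for Tuba1c/Gm6682 and Tubb2a and for Tubb4b and Tuba4a, but not without CT60 to CT65 (Tuba1c minus Tubb2a, -4.32 to -1.08 h, and Tuba4a minus Tubb4b, 0.22 to 1.46 h) or with quantile normalization (-2.77 to -0.13 h and 0.12 to 1.21 h). Tubb2a peaked before Tubb4b (Tubb2a minus Tubb4b, -1.34 h, 95% interval -2.07 to -0.62).

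Of 20 pairs of an alpha and a beta gene, the 95% interval of the difference left out 0 in 13 and held it in 7, with a median absolute difference of 1.93 h and a largest of 6.33 h, between Tuba8 and Tubb5. Tuba8, through its dim probe set, supplied 4 of these pairs. Without it, 10 of 16 pairs left out 0, with a median of 1.56 h and a largest difference of 4.93 h, between Tuba1b/Gm5620 and Tubb6. These 16 still include the pairs of Tuba1c/Gm6682, whose 24 h peak was not steady between the cycles. No correction for the number of pairs was made, and no p-value was computed. Tuba4a and Tubb4b peaked 0.49 h apart (alpha minus beta, interval -0.08 to 1.06), and 0.84 h apart without CT60 to CT65 (0.22 to 1.46). Tuba4a peaked later than Tubb2a by 1.83 h (1.31 to 2.35) and later than Tubb6 by 4.24 h (3.09 to 5.38), and earlier than Tubb5 (-1.30 h, -2.16 to -0.43), an interval that held 0 without CT60 to CT65 (-2.05 to 0.016). The interval of Tuba1b/Gm5620 with Tubb4b also came to hold 0 without these pools, and with quantile normalization that of Tuba1a with Tubb2a came to hold 0 and that of Tuba1a with Tubb5 to leave it out. Within the alpha or the beta family, 12 of 16 pairs left out 0, with a median absolute difference of 3.09 h. These pairs include those of Tuba8 and of Tuba1c/Gm6682, whose peaks are poorly fixed. No figure without Tuba8 was computed for them, so 3.09 h stands beside the 1.93 h above and not beside 1.56 h. The difference between both kinds of pair was not tested.

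The hourly log2 values are also described after removal of a linear trend from each probe set. Tuba4a and Tubb4b then lay on the same side of their own medians in 42 of 48 pools, as did Tuba4a and Tubb5, and Tuba1b/Gm5620 and Tubb5. Tuba8 and Tubb5 did so in 22. The points share their arrays and neighbouring hours are not independent, so no p is given. For 12 h, Tuba1c/Gm6682 peaked earlier than Tubb2a (-1.14 h, -1.86 to -0.43), and Tuba4a (1417374_at) later than Tubb2a by 1.70 h (0.75 to 2.65). The 12 h component of Tuba4a 1417374_at was near the threshold (adjusted p = 0.0456) and was lost on linear values, with components of 24 and 12 h only, and in 29 of 48 runs that left out 1 pool.

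**Figure D4:**
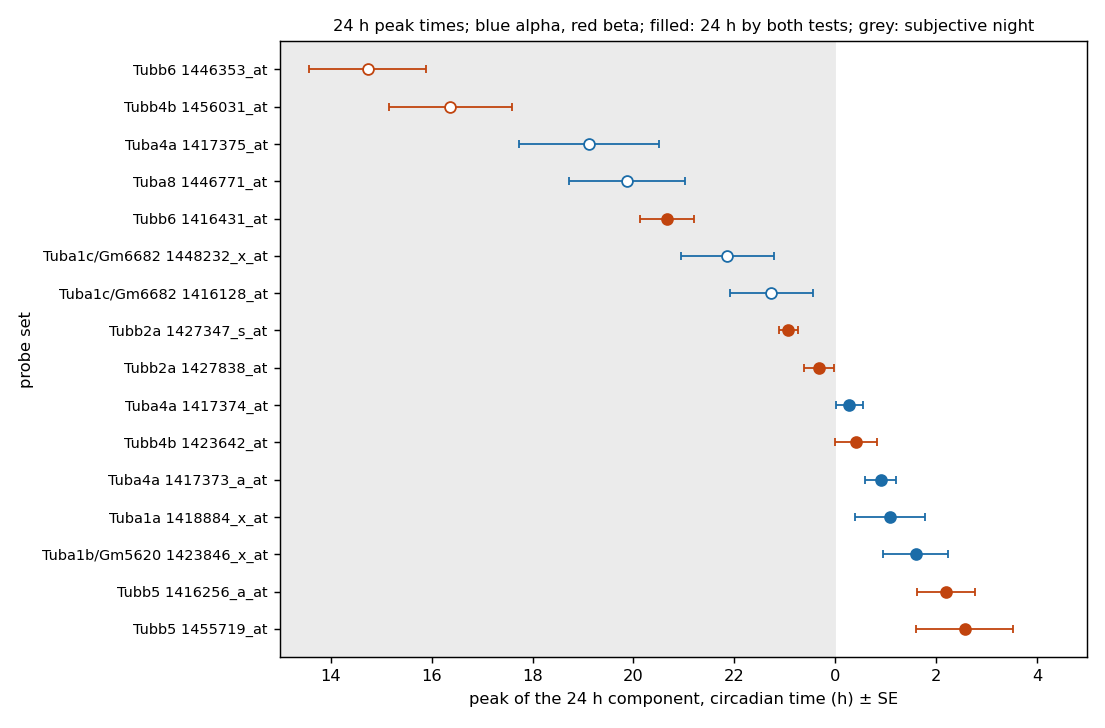
Peak time ± SE of the 24 h component, in circadian time, for the 16 probe sets with a 24 h component in limma, alpha tubulins in blue and beta tubulins in red, filled where both tests called 24 h, with subjective night in grey. The filled points run from Tubb6 at CT20.7 to Tubb5 at CT2.56.

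**Figure D5:**
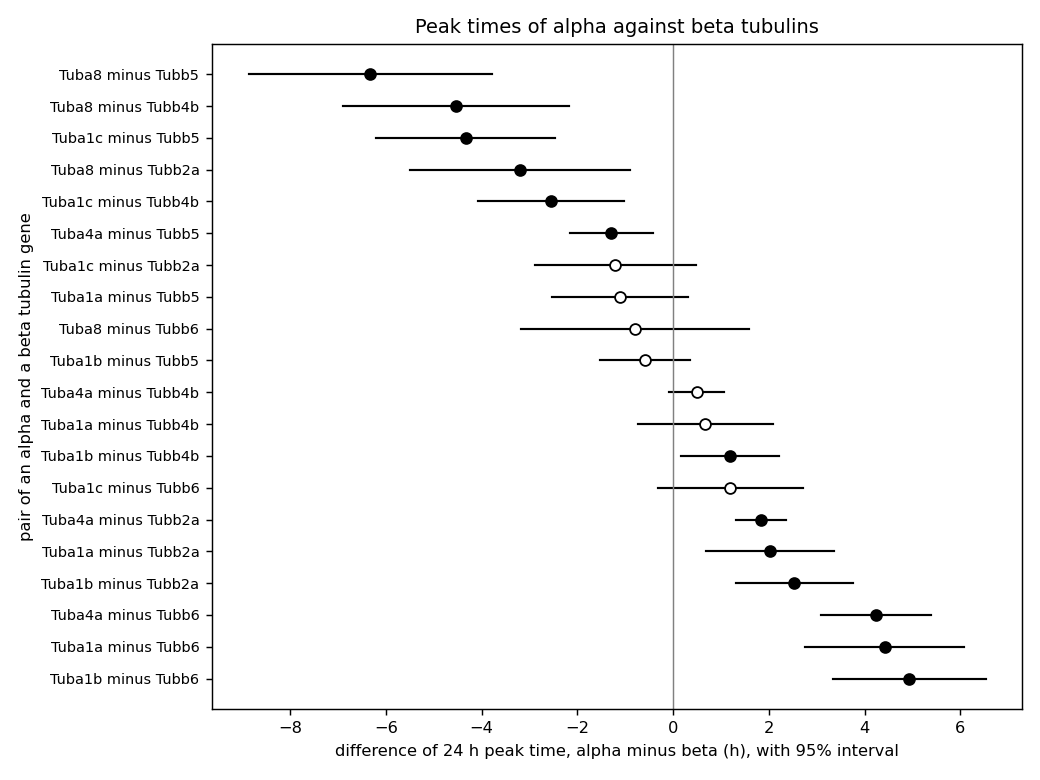
Difference of the 24 h peak time (h, alpha minus beta) with its 95% interval for the 20 pairs of an alpha and a beta tubulin gene, filled where the interval leaves out 0. The 13 filled points lie on both sides of 0, and Tuba4a with Tubb4b has the smallest difference, 0.49 h.

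The shapes of both cycles were compared with an interaction of cycle with the 24 and 12 h components. Over the array 4.59% of probe sets differed between cycles, and of the tubulins 2 of 24 did, Tubb5 1416256_a_at (limma adjusted p = 0.00866) and Tuba1b/Gm5620 (0.0229). In Tubb5 the 24 h amplitude was 0.22 ± 0.08 in cycle 1 and 0.50 ± 0.10 in cycle 2, and in Tuba1b/Gm5620 0.05 ± 0.08 and 0.26 ± 0.06. Neither was called without CT60 to CT65 (adjusted p = 0.749 for each). Tuba4a 1417373_a_at had 0.28 ± 0.06 and 0.45 ± 0.07, and Tubb2a 1427347_s_at 1.62 ± 0.13 and 1.67 ± 0.34.

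The genes whose hourly profile was most like that of the leading alpha and beta tubulin were found by Pearson's r of log2 values over the 48 pools, among 11169 genes. For Tuba4a they were Pid1 (r = 0.921), a regulator of insulin signalling, Selenoi (0.914), an ethanolamine phosphotransferase, and Gldc (0.895), the glycine decarboxylase, with 24 h peaks between CT0.51 and CT0.83. For Tubb2a they were Slc30a10 (0.974), a manganese exporter, the clock activator Arntl (0.961) and the threonyl-tRNA synthetase Tars (0.958). Arntl peaked at CT22.3 ± 0.18, somewhat before the CT23.1 of Tubb2a, and its 24 h amplitude was 2.62 on the log2 scale, against 1.80.

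The machinery that makes tubulin dimers was followed in the same way, by the brightest probe set of each gene. Over all genes taken this way, 14.2% were called with 24 h by both tests and 52.7% by limma, and the counts below are read against these shares. The shares include dim genes, and of probe sets with a mean of 100 or more both tests called 18.4%. No measured CCT, prefoldin, folding cofactor, autoregulation or motor gene had a mean under 100, so 14.2% is a low mark for them. The lists were chosen with earlier results of these data known. In the CCT chaperonin, which folds tubulin and actin, 5 of 8 subunits were called with 24 h by both tests and 7 by limma, and Tcp1, Cct7, Cct5 and Cct3 had the smallest G-test p-values. Tcp1 ran from 21476.4 at CT48 to 33810 at CT63, peaked at CT15.6 ± 0.38 and changed 1.40-fold. Cct7, Cct5 and Cct3 peaked at CT19.2, CT18.7 and CT21.8 with changes of 1.33-fold to 1.37-fold. The peaks of the tubulin probe sets called with 24 h lay, for comparison, between CT20.7 and CT2.56, and the differences were not tested.

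Of 6 prefoldin subunits, only Pfdn2 was called by both tests (peak at CT11.5, 1.30-fold), near the share over all genes, and 5 by limma. Of 7 folding cofactors and their relatives, 3 were called and 6 by limma: Tbce, which works on alpha tubulin, peaked at CT4.87 ± 0.50 with a 1.53-fold change, Tbcel, a relative of Tbce that destabilizes tubulin, at CT6.38 ± 0.40 with a 2.01-fold change, and Tbcb, a partner of Tbce, at CT0.93 ± 0.64 with a 1.21-fold change. Of 3 measured genes of tubulin mRNA autoregulation, Scaper, which recruits the deadenylase complex, was called by both tests and by limma (CT3.98 ± 0.88, 1.69-fold), and Ttc5 and Cnot11 were not.

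Among 12 measured enzymes of tubulin modification 2 were called by both tests and 7 by limma, both near the shares over all genes. Those called by both tests were Atat1, the acetyltransferase of alpha tubulin, which peaked at CT0.57 ± 0.55 with a 1.81-fold change, and Hdac6, which removes this acetyl group, at CT5.75 ± 0.66 with a 1.67-fold change. In the gamma tubulin ring complex, which starts new microtubules, both tests called Mzt1 and Tubgcp2 with 24 h and Nedd1 with 8 h out of 8 genes, and limma called 6 with 24 h. Of 14 genes of microtubule dynamics both tests called 3, Map7, Mapre1 and Clasp2, and limma 11, and of 11 motor genes both tests called 3, Kif1b, Dctn1 and Dctn2, and limma 7. Of 8 other measured tubulin genes both tests called only Tubg2, at 54.7 to 61.5, and limma 3 (Tubg2, Tubb4a and Tube1), while Tubg1, the main gamma tubulin, ran from 1332.3 at CT61 to 5642 and was called by neither.

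Liver holds other cells beside hepatocytes, and in bulk pools fewer cells of a type and less RNA per cell cannot be told apart. The hepatocyte markers Alb, Ttr, Apoa1, Cyp2e1 and Fgb were high in every pool, with a summed intensity of 3244620 to 3568650, and 1 of the 5 was called with 24 h by both tests and 1 by limma. Beside the same shares of 14.2% and 52.7% over all genes, both tests called 4 of 6 endothelial markers with 24 h and limma 5 (summed 19786.3 to 31551.8), 2 and 6 of 8 Kupffer cell markers (55546.2 to 131548), 2 and 4 of 7 stellate cell and fibroblast markers (60607.2 to 89916.1) and 1 and 4 of 8 measured markers of dividing cells (620.8 to 947.7). Of 4 bile duct, 8 lymphocyte, 6 neutrophil and 1 erythroid markers measured, both tests called 0, and limma 1, 2, 2 and 0. The endothelial and Kupffer cell markers all had a mean of 100 or more, where both tests called 18.4% of probe sets with 24 h. The 5 pancreatic acinar markers summed to 323.3 at CT27 and to 314322 at CT25. The part of these cells in the tubulin profiles was not tested. Leaving out any single pool, CT25 included, changed no count of called tubulin probe sets in limma by more than 1.5 times.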

How the data were processed

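Expression was measured in 48 hourly liver pools on 1 Affymetrix Mouse Genome array each. Linear intensities were deposited, which by the paper's methods the authors had extracted with GCRMA (background correction, quantile normalization between arrays and summary of the probes of a probe set). MAS5 is named in the labels with no version, and in the paper's methods it served only for detection calls. Background correction leaves dim probe sets with compressed values, so folds near an intensity of 100 or below understate change. For arrays the number of pools limits the precision. The replicate is a pool, and neighbouring hours may not be independent, which the fits assume.

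The values were taken to log2. Fisher's G-test (exact, 23 Fourier frequencies) and a cosine fit after COSOPT (linear trend removed, periods between 4 and 30 h, 0.1 h apart, 1000 scramblings common to all probe sets) were run on all 45101 probe sets, and p-values were turned into q-values after Storey. Limma 3.58.1 was fitted with a linear trend and pairs of cosine and sine terms at 24, 12 and 8 h, with Benjamini-Hochberg adjustment over all probe sets. Standard errors of amplitude and peak time came from the delta method, and intervals are at 95%. Amplitude is the size of the cosine from its mid-line, so the fold from trough to peak spans 2 amplitudes. Differences of peak time between genes used the correlation of their residuals. The scripts were tested on simulated data. Gene names came from the platform annotation and RefSeq tables (GRCm38.p6).

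The members and all gene lists were chosen with earlier results of these data known. Named are all tubulin probe sets, up to 4 called members of each other list by smallest G-test p, and the 3 genes most like the alpha and the beta tubulin with the smallest G-test p (1 probe set per gene, mean intensity of 100 or more). Alternatives were linear values, quantile normalization, scaling by the 75th percentile, other detrending, adjustment and thresholds, brighter probe sets only, each cycle alone (CT18 to CT41 and CT42 to CT65), CT60 to CT65 left out, and each pool left out in turn. The restriction to probe sets with 1 gene symbol and the comparison of peak times without Tuba8 were chosen after seeing the data. R 4.3.3 and Python 3.11.15 were used, the latter with scipy 1.17.1, numpy 2.4.6, matplotlib 3.10.9 and pandas 2.3.3.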

Additional observations from a re-analysis of the deposited data

Results flagged for a closer look

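Of the 24 tubulin probe sets 2 differed in the shape of their rhythm between the first and the second cycle, as did 4.59% of the array. The test was the interaction of cycle with the 24 and 12 h components (limma, adjusted over all probe sets). For Tubb5 1416256_a_at the adjusted p was 0.008665, with 24 h amplitudes of 0.22 ± 0.08 and 0.50 ± 0.10 on the log2 scale. For Tuba1b/Gm5620 1423846_x_at it was 0.02287, with 0.05 ± 0.08 and 0.26 ± 0.06. With quantile normalization the adjusted p was 0.0204 for Tubb5 and 0.0881 for Tuba1b/Gm5620. Without CT60 to CT65 it was 0.749 for each. These 6 pools held 1920.1 to 4042.7 for Tubb5 and 20956.1 to 29007.9 for Tuba1b/Gm5620, against 4925 to 6169.7 and 27723.1 to 37917.4 in CT36 to CT41.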

How the results depend on the processing

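When each cycle of 24 pools was analysed alone, both tests called 0 tubulin probe sets with 24 h in either, and their 12 h calls were 1 (CT18 to CT41) and 0 (CT42 to CT65). Limma then called a 24 h component in 7 of the 16 in the first cycle and a 12 h component in 2 and 0 of the first and the second. These fits hold fewer pools, and the cosine fit removed a linear trend from a single span of 24 h. Tubb2a 1427347_s_at, with a limma adjusted p of 7.26e-07 for 24 h in the first cycle, was not called by both tests there either. The counts of 0 can therefore not show that a cycle lacked the rhythm. Shares over the array for single cycles are not given here. Without CT60 to CT65 both tests called 8 probe sets with 24 h, 7 of them among the 10, and 1 with 12 h, and 0 differed between cycles, against 1 with quantile normalization. At q under 0.01 both tests kept 1 of the 2 with 12 h. Restricted to probe sets of a single symbol, a restriction chosen after seeing the data, both tests called 0 and limma 2 with 12 h, since the Tuba1c probe sets are shared with Gm6682. The other alternatives stayed within 1.5 times of the main counts. Counts and amplitudes have no sign that could change, but some differences of peak time changed theirs. Among them, Tuba1a minus Tubb4b was 0.67 h in the main fit (-0.73 to 2.08) and -0.34 h with quantile normalization (-1.91 to 1.23). Scaling by the 75th percentile, which itself spanned 0.46 on the log2 scale between arrays, brought the limma count for 24 h from 16 to all 24, dim probe sets included, and quantile normalization brought it to 13. Those gained by the scaling included Tubb4b 1438622_x_at, with values of only 31.2 to 32.5. The shares of the array called in these settings are not given here, so neither count can be read as a result about the tubulins. Tubb5 1455719_at lost its call by both tests with quantile normalization, detrending before the G-test, Benjamini-Hochberg adjustment and q under 0.01. The causes were not tested. Leaving out each pool in turn ended 2 limma calls, the 24 h component of Tuba4a 1417375_at in 17 of 48 runs and the 12 h component of Tuba4a 1417374_at in 29. No paired analysis was run: there was 1 group, and pools of the same hour in both cycles were not paired.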
